A study of Rattus norvegicus with 12 samples.

Results

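The livers of female (XX) and male (XY) rats were compared without glucocorticoid, on the 3 female vehicle and the 3 male vehicle arrays of a series of 12. Non-control probes on genes known to be autosomal were described: 11778 of the 24293 genes measured lay on an autosome of the reference annotation. Another 12153 matched no gene of that annotation, so their chromosome is unknown here and they were left out. On sex chromosomes lay 357. All groups were adrenalectomized Sprague-Dawley rats of 8 to 10 weeks, so vehicle animals of either sex lacked their adrenal source of corticosterone. Females were in diestrus 1. Vehicle was PBS given intraperitoneally, and liver was taken 6 h later. The other 6 arrays, 3 per sex, came from equally operated rats given dexamethasone at 1 mg/kg, and they are used here as separate samples in which to read the same sex difference. Each array held liver RNA pooled from 3 animals, 9 animals per group, hence the p-values rest on the spread between pools. Because the liver was sampled whole, fewer cells of a type and less RNA per cell cannot be told apart.

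Rat liver is among the most sexually dimorphic organs. Male rats secrete growth hormone in regular pulses and females more continuously, and hepatocytes read this pattern through the growth hormone receptor, JAK2 and STAT5B. Repressors such as BCL6 in males and CUX2 in females, and HNF6, the product of Onecut1, act on the same genes. The genes known to respond include steroid- and drug-metabolising cytochromes P450, sulfotransferases, aldo-keto reductases and, in males, the secreted major urinary proteins. Sex steroids act on liver partly through the pituitary.

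The upstream sequences of 3 strongly dimorphic genes of this comparison are shown because motifs of these regulators can be read in them. They were picked for this and do not stand for the called genes. Those of Cyp2c11, Sult1e1, Stac3 and Slc22a8, also strongly dimorphic, held neither of the 2 motifs marked. Shares over all genes are given further below. They are the 250 bases before the RefSeq gene start, in build GRCr8, 5′ to 3′ on the strand of the gene. Capitals mark TTCNNNGAA, a STAT5 motif, and ATTGAT, the core of an HNF6 motif, on either strand. A1bg, higher in females, lies at chr7:94387497-94387746 (minus strand) and holds both. Cyp2c12, higher in females, lies at chr1:248677035-248677284 (minus strand) and holds 2 HNF6 motifs. Cyp2c13, lower in females, lies at chr1:248787189-248787438 (minus strand) and holds 1.
A1bg: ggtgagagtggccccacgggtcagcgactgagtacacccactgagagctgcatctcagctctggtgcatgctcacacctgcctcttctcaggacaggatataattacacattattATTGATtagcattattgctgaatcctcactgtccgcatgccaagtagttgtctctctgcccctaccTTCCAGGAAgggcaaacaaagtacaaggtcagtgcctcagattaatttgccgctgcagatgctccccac
Cyp2c12: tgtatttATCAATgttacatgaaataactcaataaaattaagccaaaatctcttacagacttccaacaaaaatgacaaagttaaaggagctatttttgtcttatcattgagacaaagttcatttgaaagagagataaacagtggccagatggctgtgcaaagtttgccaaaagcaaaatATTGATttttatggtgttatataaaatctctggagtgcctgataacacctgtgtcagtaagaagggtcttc
Cyp2c13: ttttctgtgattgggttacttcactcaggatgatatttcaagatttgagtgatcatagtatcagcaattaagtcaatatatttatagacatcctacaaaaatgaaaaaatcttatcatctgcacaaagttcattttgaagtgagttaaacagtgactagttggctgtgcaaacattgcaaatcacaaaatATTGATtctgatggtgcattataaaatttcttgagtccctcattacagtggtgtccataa

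The scanner marked 53.0% to 69.7% of each array's spots as well above background, and the number of arrays limits the precision. The arrays of replicate 3 shared slide 5, the only slide with both vehicle groups, and were dimmer than the rest of their groups. A level below is the log2 signal minus the 75th percentile of its array, and a difference is female minus male on that scale, where 1 is a 2-fold difference. As a check of the labels, the file's Utx and Eif2s3x probes, for X-linked genes known to escape inactivation, were higher in females by 0.87 (SE 0.14, adjusted p = 0.0112) and 0.75 (SE 0.13, adjusted p = 0.0127). Ddx3x, of the same check list, was not called (0.28, SE 0.17, adjusted p = 0.663). The only Y probe was not above background on any array. All 10 hepatocyte markers were measured and none was called between the sexes. Neither were any of the 114 measured entries on lists for zonal hepatocytes, Kupffer cells, lymphocytes, neutrophils, endothelium, stellate cells, bile duct, erythroid cells and adipocytes. All 7 erythroid markers nevertheless had a negative difference (median -0.46), with array means of 0.92 to 1.41 in females and 1.45 to 1.81 in males. The array means of the 14 periportal markers did not overlap either, at 4.87 to 4.95 in females and 4.63 to 4.76 in males. The part of either in the results below was not tested.

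Few autosomal genes were called between the sexes after vehicle, and the called differences were mostly large. With 3 arrays per group a small difference could hardly be called, and 1232 autosomal genes had an unadjusted p under 0.05. Of the 11778 autosomal genes, 235 (2.0%) were called at an adjusted p under 0.05: 95 were higher in females (0.807%) and 140 lower in females (1.19%). The same rule called 414 of all 24293 genes (1.70%), 180 higher (0.741%) and 234 lower (0.963%). The median difference over the autosomal genes was 0.013, against 1.55 over the genes called higher and -1.87 over those called lower. By the raw signals, the difference was at least 2-fold for 203 called genes, and 16-fold or more for 19 genes higher and 30 genes lower in females. These counts include genes below background in 1 sex, whose folds are not established. Of the called genes, 7 higher in females were below background on every male vehicle array, and 19 lower on every female one. Ky and Akr1c3, counted at 16-fold or more, had bounds of only 5.47-fold and 6.51-fold. The vehicle arrays of the sexes did not overlap for any of the 235 genes, while 17.1% of all autosomal genes had no overlap. With the slide as a block, 69 genes were called higher and 78 lower, and with the 6 vehicle arrays alone 40 and 56. Of the 235 calls, 114 were kept with the slide as a block and 94 with the vehicle arrays alone. Arrays of the same slide deviated together, with a fitted correlation of 0.51. Female replicates 1 and 2 shared slide 2, while male replicates 1 and 2 were on slides 3 and 1. Leaving out female replicate 2, female replicate 1 or male replicate 3 lowered the number called higher to 56, 59 and 59, and leaving out female replicate 1 or male replicate 2 lowered the number called lower to 89 and 91. The called genes lay on every autosome, from 0.817% of the genes tested on chromosome 20 to 3.42% on chromosome 19.

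**Figure D1:**
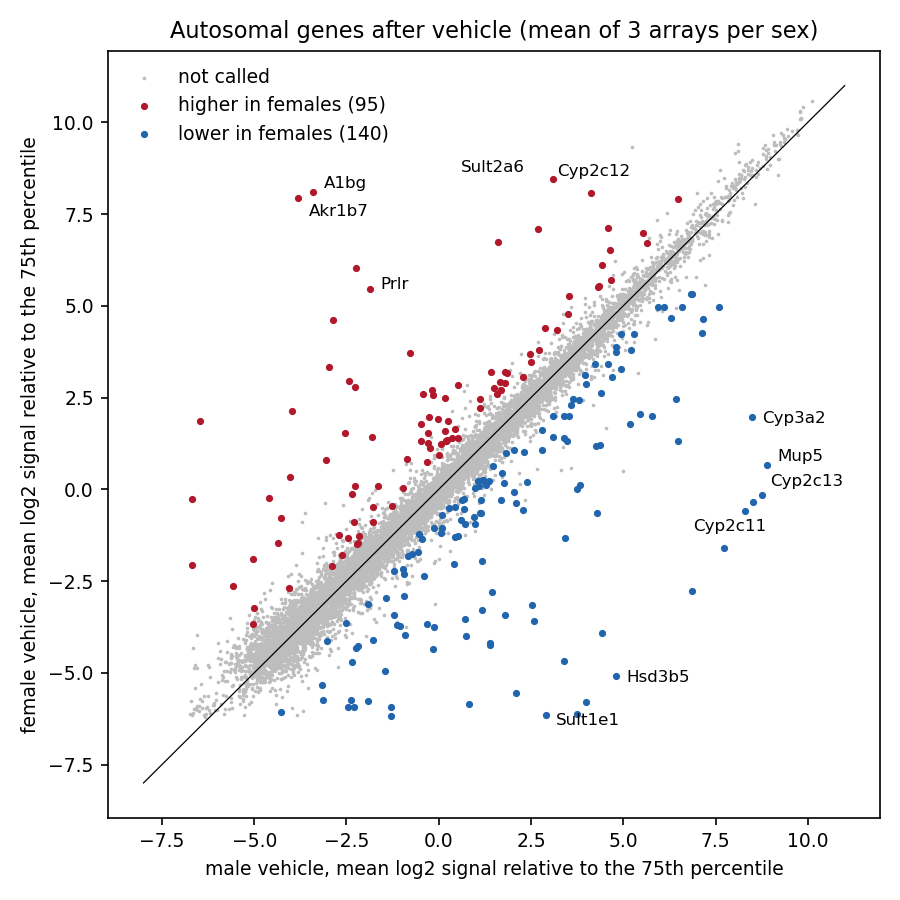
Mean log2 signal of each autosomal gene in the 3 female vehicle arrays (vertical axis) against the 3 male vehicle arrays (horizontal axis), relative to the 75th percentile of the array; red points were called higher in females (95), blue points lower (140), and the line marks equality. A1bg and Akr1b7 stand far above the line, and Hsd3b5, Sult1e1, Cyp2c11 and Cyp2c13 far below it.

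The steroid hydroxylases of the CYP2 and CYP3 families held the classic male-specific enzymes. Of 30 measured members of cytochrome P450 families 1 to 3, 2 were called higher in females and 7 lower, with a median difference of -0.35. Cyp2c11, the main male-specific hydroxylase of testosterone, gave -0.34, -0.11 and -1.28 in the female arrays and 8.25 and 8.36 in 2 male arrays (the third spot was flagged by the scanner and left out). Cyp2c13, another male-specific P450, gave -0.08, 0.33 and -0.69 in females and 8.23, 8.67 and 9.35 in males. The sexes were thus far apart for both, with differences of -8.88 (SE 0.38, adjusted p = 5.19e-06) and -8.90 (SE 0.47, adjusted p = 6.95e-06).

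Cyp3a2, a male-predominant drug and steroid hydroxylase, read 2.52, 3.96 and -0.53 in females against 8.13, 8.38 and 8.92 in males. Its difference was -6.49 (SE 1.17, adjusted p = 0.0192), and the female arrays were widely spread, replicate 3 being lowest. It was called in only 2 of the 6 fits that leave out 1 vehicle array. The other male-predominant members were Cyp2a2 (-4.74, SE 0.44), Cyp3a18 (-3.96, SE 0.51), Cyp3a62 (-1.94, SE 0.30) and Cyp2b12 (-1.29, SE 0.26). The probes of Cyp3a18 and Cyp3a62 matched at 41 of 60 bases, and whether either also picked up the other transcript was not tested. With the slide as a block Cyp3a62 (adjusted p = 0.114) and Cyp2b12 (adjusted p = 0.185) were not called, and Cyp2b12 held in 1 of the 6 fits without 1 vehicle array. In family 4, whose enzymes hydroxylate fatty acids, Cyp4a2 (-3.71, SE 0.41) and Cyp4a8 (-2.52, SE 0.26) were lower in females among 11 measured members.

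Cyp2c12, the female-specific steroid sulfate hydroxylase, gave 8.54, 8.11 and 7.61 in females and 4.10, 5.13 and 3.11 in males. It was higher in females by 3.97 (SE 0.53, adjusted p = 0.0028), with no male array near a female one. Cyp2a1, a steroid hydroxylase, was higher by 1.26 (SE 0.23, adjusted p = 0.0210), a call held in 2 of the 6 fits without 1 vehicle array. Cyp2c7, a female-predominant retinoid and steroid hydroxylase, missed the threshold in spite of its size: it gave 9.19, 9.19 and 9.62 in females and 6.28, 2.97 and 6.51 in males, a difference of 4.08 (SE 1.03, adjusted p = 0.0996). Male replicate 2 was the low array. Cyp3a9 (0.78, SE 0.67), Cyp17a1 (0.47, SE 0.61) and Cyp7b1 (0.75, SE 0.63) did not pass either.

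Cyp2a1 and Cyp2a2 went in opposite directions although their 60-base probes matched at 51 positions in the best ungapped alignment. Bases 23 to 52 of both probes are shown, with the 6 mismatches of this stretch in capitals.
Cyp2a1: aGaacctagtgatgAcaAcaCtaAgcctcT
Cyp2a2: aCaacctagtgatgTcaTcaTtaGgcctcC
Whether either probe also picked up the other transcript was not tested.

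The major urinary proteins, small lipocalins that carry pheromones and are secreted by male liver, gave the largest group of strong differences. Of 14 measured members of the list of major urinary proteins and lipocalins, 6 were lower in females and none higher, with a median of -1.10. The 6 were Mup4, Mup4l1, Mup4l3, Mup4l4, Mup5 and Obp3. Mup5 gave 0.64, 1.22 and 0.14 in females against 8.70, 8.09 and 9.89 in males. Mup4l4 gave -0.53, 0.33 and -0.80 against 8.53, 7.42 and 9.61. In both, male replicate 2 was the lowest male array and still more than 6 units above every female one. The differences were -8.23 (SE 0.87) and -8.85 (SE 0.86).

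Mup4, Obp3, Mup4l3 and Mup4l1 had differences between -9.87 and -9.33, with adjusted p from 1.99e-04 to 0.00123. Mup4 and Obp3 were not well above background on any female vehicle array, so their folds are bounds: at least 216-fold and at least 253-fold lower in females. Obp3 read 4.93, 1.26 and 5.78 in the male arrays, again with replicate 2 lowest. Mup4l1 rests on 2 male arrays. The probes of Mup4 and Obp3 matched at 53 of 60 bases, so the pair cannot be read as independent. Rup2, another urinary protein of the list, gave 5.41, 5.39 and 5.88 in females against 7.21, 6.88 and 7.57 in males. Its difference of -1.66 (adjusted p = 0.0563) missed the threshold, as did that of Rup2l1, outside the list (-1.76, adjusted p = 0.0524). Their probes matched at 48 of 60 bases. The other lipocalins of the list, among them Orm1 (-0.39), Rbp4 (0.09), Apom (0.77) and Lcn2 (1.08), were not called.

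The 6 called urinary protein genes each held ATTGAT, on one strand or the other, in the 250 upstream bases. It began between 208 and 174 bases before the gene start. Stretches of 40 bases around it are shown, because these genes moved together and are near copies of each other; the motif is in capitals. All are of GRCr8, chromosome 5, minus strand, in the order chr5:79759674-79759713, chr5:79640836-79640875, chr5:80318530-80318569, chr5:80226686-80226725, chr5:79707993-79708032 and chr5:79999874-79999913.
Mup4: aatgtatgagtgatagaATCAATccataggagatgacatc
Obp3: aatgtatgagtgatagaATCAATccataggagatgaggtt
Mup4l3: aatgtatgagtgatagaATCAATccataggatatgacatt
Mup4l1: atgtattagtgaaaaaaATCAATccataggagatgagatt
Mup4l4: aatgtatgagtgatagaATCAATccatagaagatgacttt
Mup5: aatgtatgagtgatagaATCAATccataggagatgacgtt

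Over all genes with an upstream sequence, ATTGAT was found in 14 of 119 genes lower in females (11.8%), in 7 of 80 genes higher in females (8.75%) and in 400 of 9477 autosomal genes measured (4.22%). These 6 genes and the pair Spink1 and Spink1l, whose stretches around the motif had the same letters, make up 8 of the 14. TTCNNNGAA was found in 6 of 119 (5.04%), 6 of 80 (7.50%) and 588 of 9477 (6.20%). TTCCTNGAA, a form bound by BCL6 that overlaps the STAT5 motif, was found in 0.840%, 3.75% and 1.20%. TGTTTAC, a FOXA motif, was in 4.20%, 1.25% and 2.31%, and CAAAGTCCA, an HNF4 motif, in 1.68%, 0% and 0.380%. The full HNF1 palindrome was in none of the 9477. Both strands were searched. These are matches of letters in a short window and show no binding.

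**Figure D2:**
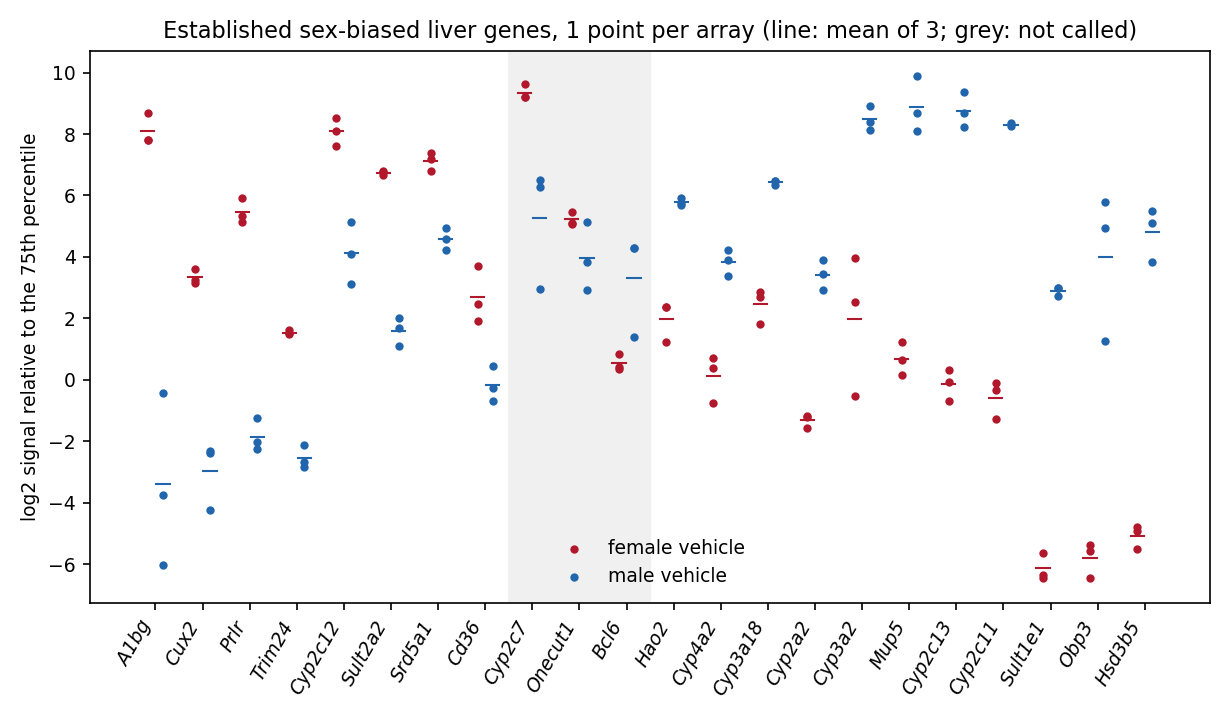
Log2 signal, relative to the 75th percentile of the array, of 22 established sex-biased liver genes in the 3 female (red) and the male (blue) vehicle arrays; each point is 1 array and each line the group mean. Females are at the top from A1bg to Cd36 and males from Hao2 to Hsd3b5; Cyp2c7, Onecut1 and Bcl6 on grey were not called.

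Among steroid-transforming dehydrogenases the called genes were mainly lower in females. Of 23 measured steroid dehydrogenases and reductases, 5 were called lower and 1 higher, with a median of -0.23. Hsd3b5, a male-specific member of the 3-beta-hydroxysteroid dehydrogenase family, gave -4.78, -4.94 and -5.50 in females, never well above background, and 5.09, 3.85 and 5.50 in males. Its difference was -9.89 (SE 0.59, adjusted p = 1.555e-05), at least 448-fold. Hsd3b1 (-7.63, at least 68.0-fold) and Hsd3b2 (-6.17, SE 0.48) of the same family followed. Hsd11b1, which regenerates active glucocorticoid from its inactive 11-keto form, read 5.05, 5.16 and 4.66 in females against 7.46, 7.70 and 7.58 in males. That is a difference of -2.62 (SE 0.25, adjusted p = 3.46e-04) with narrow groups. Rdh16, a retinol and hydroxysteroid dehydrogenase, differed by -5.68 (SE 0.45).

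Srd5a1, the steroid 5-alpha-reductase, was the member called higher: 7.17, 7.37 and 6.78 in females against 4.60, 4.95 and 4.22 in males. Its difference was 2.52 (SE 0.34, adjusted p = 0.00309). Hsd17b2 was level at 0.003 (SE 0.37).

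Sulfotransferases split by subfamily. Of 15 measured entries of their list, 3 were higher in females and 4 lower, with a median of -0.077. The 3 higher ones were all hydroxysteroid sulfotransferases. Sult2a6 gave 8.43, 8.72 and 8.25 against 2.96, 2.91 and 3.40 in males, Sult2a2 gave 6.80, 6.76 and 6.65 against 2.02, 1.09 and 1.68, and Sult2a1 gave 7.06, 7.13 and 7.07 against 3.63, 1.91 and 2.50. Each female group was tight and lay at least 3 units above the highest male array. The differences were 5.37 (SE 0.41), 5.14 (SE 0.48) and 4.41 (SE 0.56), with adjusted p from 7.26e-05 to 0.00215.

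Sult1e1, which sulfates and so inactivates estrogens, was not well above background on any female array. It gave -6.45, -6.34 and -5.62 there and 2.72, 2.98 and 3.0 in males. Its difference was -9.04 (SE 0.32), at least 119-fold, with the smallest adjusted p of the 235 genes (9.05e-07). Sult1c3 (-2.87, SE 0.51), Sult1b1 (-1.62, SE 0.34) and Sult1a1 (-1.41, SE 0.18) of the phenol family were also lower in females. Of these, Sult1a1 was called in all 6 fits without 1 vehicle array, Sult1c3 in 2 and Sult1b1 in 1, and Sult1b1 was not called with the slide as a block (adjusted p = 0.136). Of the conjugating enzymes besides these, Ugt2b37 (-1.49, SE 0.25) was called among 11 glucuronosyltransferase entries, 10 of which had a negative difference. Gstm3 (-3.36, SE 0.40) and Gstm1 (-1.55, SE 0.20) were called among 18 glutathione S-transferases. With the slide as a block Ugt2b37 (adjusted p = 0.0976), Gstm3 (adjusted p = 0.0545) and Gstm1 (adjusted p = 0.0763) missed the threshold. None of the 22 measured carboxylesterases, flavin monooxygenases and related hydrolases and oxidases was called.

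Aldo-keto reductases, which reduce steroid and lipid aldehydes and ketones, also went both ways, with 2 of 16 higher in females and 4 lower (median -0.68). Akr1b7 gave 7.87, 7.76 and 8.21 in females and -5.29, -0.93 and -5.18 in males, where 1 of 3 arrays stood well above background. The difference of 11.75 (SE 1.00, adjusted p = 1.50e-04) went against the male-biased list on which the gene had been placed, and its size rests on 2 male arrays without a signal well above background. Akr1b8 of the same subfamily gave 6.17, 5.85 and 6.06 against -1.87, -1.70 and -3.17, a difference of 8.27 (SE 0.45).

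In the Akr1c subfamily 3 of 8 measured genes were called, all lower in females. Akr1c12 gave -0.79, 0.45 and -1.63 in females and 4.17, 4.25 and 4.42 in males, a difference of -4.94 (SE 0.49). Akr1c3 (-4.87, at least 6.51-fold) and Akr1c12l1 (-3.75, SE 0.51) followed, and Akr7a3, an aflatoxin aldehyde reductase, differed by -1.63 (SE 0.18). With the slide as a block Akr1c12 (adjusted p = 0.0511) and Akr1c12l1 (adjusted p = 0.128) missed the threshold. The 5 Akr1c genes not called were Akr1c1 (-1.73), Akr1c2 (-1.22), Akr1c14 (0.64), Akr1c15 (0.34) and Akr1c19 (0.14).

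A1bg, a plasma glycoprotein of the immunoglobulin superfamily and a classic female-specific liver product, gave 8.68, 7.81 and 7.80 in females. The male arrays gave -3.74, -0.43 and -6.03, 2 of them well above background. The difference was 11.50 (SE 1.20, adjusted p = 5.41e-04), and the males were widely spread with replicate 2 highest. Male replicate 2 was also the highest male array of Akr1b7 and Cyp2c12, and the lowest of Hsd3b5 and the urinary proteins given above.

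Hormone receptors and regulators moved in few members. Of 33 measured genes of growth hormone and prolactin signalling, 1 was higher in females, 1 lower, and the median was 0.17. Prlr, the prolactin receptor, gave 5.93, 5.32 and 5.13 in females and -2.04, -1.26 and -2.26 in males. The difference was 7.31 (SE 0.99, adjusted p = 0.00309), and its adjusted p was 0.0530 with the slide as a block. Egfr, the epidermal growth factor receptor, gave 3.01, 3.02 and 3.15 against 4.51, 4.98 and 4.60 (-1.63, SE 0.25, adjusted p = 0.00683). The pathway's own receptor and transducer showed no call: Ghr differed by 0.17 (SE 0.28), Stat5b by -0.025 (SE 0.26), Igf1 by 0.22 (SE 0.30), Socs2 by 0.23 (SE 0.21) and Cish by -0.53 (SE 0.38).

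Of 47 measured regulators linked to sex-biased liver expression, 3 were higher in females and 2 lower, with a median of -0.048. Cux2, a homeobox repressor of male-biased genes, gave 3.14, 3.26 and 3.61 in females and -4.23, -2.33 and -2.37 in males (6.32, SE 0.46, adjusted p = 5.29e-05). Trim24, a nuclear receptor cofactor, gave 1.53, 1.61 and 1.48 against -2.68, -2.13 and -2.84 (4.09, SE 0.28, adjusted p = 3.61e-05). Both were female-predominant with tight female groups. Id1, an inhibitor of basic helix-loop-helix factors, was higher by 1.40 (SE 0.21), with an adjusted p of 0.0948 with the slide as a block.

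Nr1i3, the constitutive androstane receptor that induces drug-metabolising enzymes, differed by -1.60 (SE 0.26), with 0.17, 0.48 and -0.14 against 1.77, 1.47 and 2.07 (adjusted p = 0.00999, and 0.0559 with the slide as a block). Foxa1, a hepatocyte pioneer factor, differed by -0.79 (SE 0.16, adjusted p = 0.0416); this call was lost in all 6 fits without 1 vehicle array and with the slide as a block (adjusted p = 0.263). Bcl6, the male-biased repressor, stood just outside: 0.43, 0.36 and 0.83 in females against 4.28, 4.29 and 1.40 in males, a difference of -2.79 (SE 0.62, adjusted p = 0.0556). Male replicate 3 was the array near the females. Onecut1, which encodes HNF6, read 5.47, 5.11 and 5.09 against 3.84, 2.91 and 5.14 (1.26, SE 0.49, adjusted p = 0.387), and the groups overlapped. Tox (1.01, SE 0.34) and Nr3c1, the glucocorticoid receptor (-0.056, SE 0.17), were not called. Esr1, the estrogen receptor, was not well above background on any female array (-0.66, SE 0.18, adjusted p = 0.128).

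Transporters were called only downward. Of 38 measured drug and anion transporters, 5 were lower in females, none higher, and the median was -0.22. Ust5r, an organic anion transporter of the SLC22 family, gave -3.12, -5.34 and -5.53 in females and 3.04, 3.70 and 3.43 in males (-8.06, SE 0.55), and 1 female array was well above background. Slc22a8, an organic anion exchanger, was at least 28.1-fold lower (-6.67). Slc10a2, the sodium-dependent bile acid transporter known from ileum and bile duct, differed by -4.47 (SE 0.39). Slc22a25 (-2.32, adjusted p = 0.0497) stood at the edge of the threshold (0.0748 with the slide as a block), as did Amigo2 (1.13, adjusted p = 0.0499) and Atmin (0.70, adjusted p = 0.0484) inside it and Dzip1 (-0.82, adjusted p = 0.0503), Avpi1 (-0.84, adjusted p = 0.0509) and RT1-CE6 (1.55, adjusted p = 0.0510) outside.

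**Figure D3:**
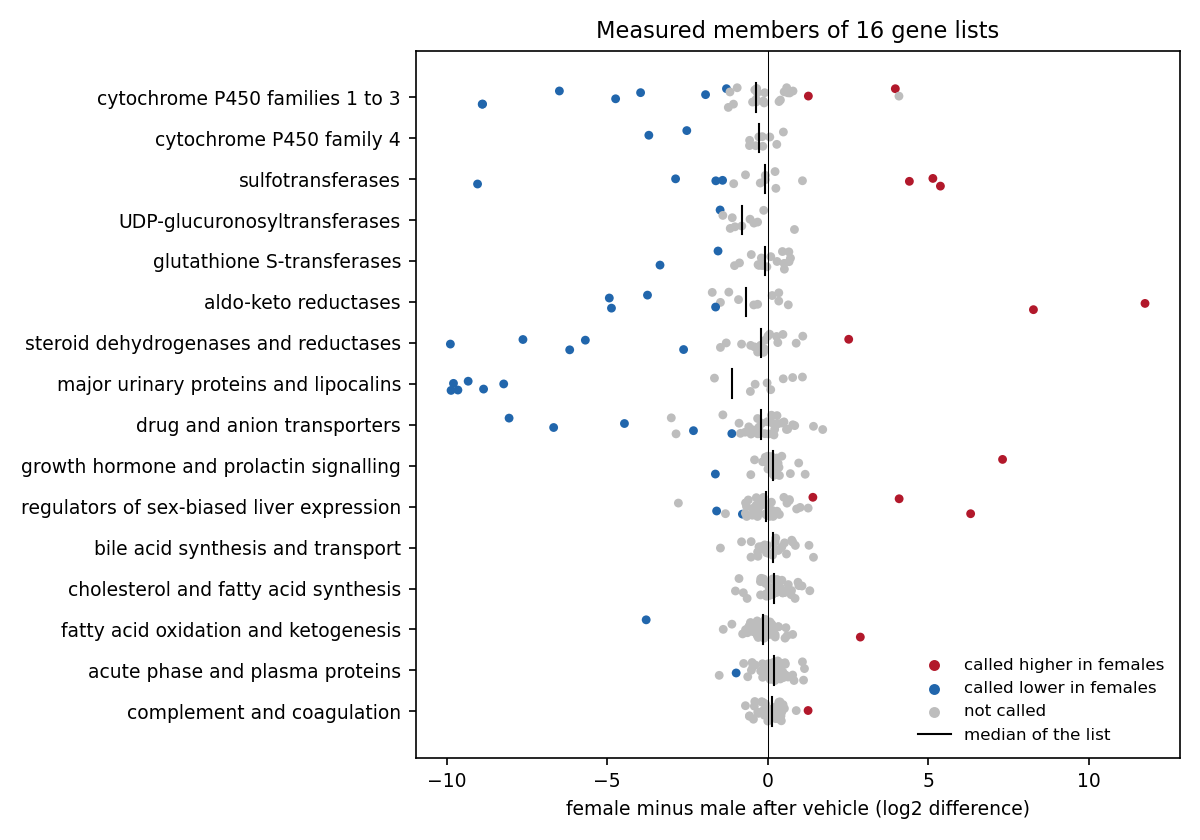
Difference between the sexes after vehicle (log2, horizontal axis) for the measured autosomal members of 16 gene lists; each point is 1 gene, red if called higher in females, blue if called lower, grey if not called, and black ticks are list medians. Called genes lie on both sides for P450 families 1 to 3, sulfotransferases, aldo-keto reductases and steroid dehydrogenases, while bile acid, cholesterol and fatty acid synthesis genes all stay grey.

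Few genes of central metabolism were called, but calls were also few among all autosomal genes (235 of 11778). Whether these lists held a smaller share of calls than the autosomal genes was not tested. None of 27 bile acid genes (median 0.15), 46 cholesterol and fatty acid synthesis genes (0.20), 34 genes of glucose and glycogen metabolism (-0.047) or 19 clock genes (0.056) was called. Of 48 genes of fatty acid oxidation and ketogenesis, Cd36, a fatty acid transporter, was higher in females: 3.72, 2.46 and 1.92 against -0.70, 0.43 and -0.28 (2.88, SE 0.59, adjusted p = 0.0372). Its call held in 1 of the 6 fits that leave out 1 vehicle array, and its adjusted p was 0.130 with the slide as a block. Hao2, a peroxisomal hydroxy acid oxidase, was lower in females: 2.37, 2.36 and 1.23 against 5.74, 5.68 and 5.91 (-3.79, SE 0.32, adjusted p = 1.43e-04). Among 51 genes of amino acid catabolism, Csad, which makes the taurine precursor hypotaurine, was at least 7.71-fold lower (-3.05, SE 0.47), and Prodh2, a hydroxyproline dehydrogenase, was higher by 1.46 (SE 0.23).

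In retinoid handling, where 1 of 20 was higher and 1 lower, Cyp26a1, which degrades retinoic acid, was higher in females by 2.32 (SE 0.47, adjusted p = 0.0348), a call held in 1 of the 6 fits without 1 vehicle array. Of 54 acute phase and plasma proteins, 1 was called, Serpina3m, a serine protease inhibitor (-0.99, SE 0.16). Of 43 complement and coagulation genes, F7, coagulation factor VII, was called (1.25, SE 0.21). In metal handling, Id1 was higher and Slc39a4, a zinc importer, lower (-0.84, SE 0.17) among 28. The call of Slc39a4 was lost in all 6 fits without 1 vehicle array. With the slide as a block Slc39a4 (adjusted p = 0.166), Cyp26a1 (adjusted p = 0.124) and Serpina3m (adjusted p = 0.0979) were not called.

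Immune lists each held 1 called gene, all higher in females, which sets no direction for a list. Calls were also few among all autosomal genes (235 of 11778). Whether the immune lists held a larger share of calls than the autosomal genes was not tested. Ifi47, an interferon-inducible GTPase, gave 3.59, 3.20 and 4.38 in females and -0.68, -0.30 and -1.38 in males (4.51, SE 0.60, adjusted p = 0.00295). The other 31 measured genes of the interferon list lay between -0.77 and 0.76, and the median of the list was 0.049. The list does not hold every gene linked to interferon: Bst2 (1.42), Ifngr2 (1.13) and Ifitm6 (4.36), outside it, were called higher in females. With the slide as a block Ifngr2 was not called (adjusted p = 0.0834). Psmb10, a subunit of the immunoproteasome, was higher by 1.20 (SE 0.22) among 28 antigen presentation genes, and Cxcl14, a chemokine, by 2.27 (SE 0.20) among 32 inflammatory mediators. Cdkn1c, an inhibitor of cyclin-dependent kinases, was higher by 1.03 (SE 0.22) among 36 cell cycle genes. The call of Cdkn1c was lost in all 6 fits without 1 vehicle array and that of Psmb10 in 5, and neither was called with the slide as a block (adjusted p = 0.132 and 0.0703).

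Of 9 measured markers of exocrine pancreas, 2 were called higher in females and 1 lower. Cpa1, a carboxypeptidase, gave -0.44, 0.29 and -0.67 against values not well above background in any male (at least 19.1-fold). Cela1, an elastase of the same list, went the other way (-2.01, SE 0.36), a call held in 2 of the 6 fits without 1 vehicle array. The 6 members that were not called lay between -0.84 and 0.84: Prss2 (-0.21), Cela2a (0.17), Cel (0.33), Ctrl (0.36), Ctrb1 (0.84) and Cpb1 (-0.84). The mean level of the 9 was -0.80 to -0.42 in female and -2.17 to -1.90 in male arrays. The part of pancreatic RNA in these values was not tested.

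Lifr, the receptor of leukemia inhibitory factor, gave 2.33, 1.37 and 2.69 in females and -4.70, -3.66 and -3.58 in males (6.11, SE 0.53). Adh1-ps1, annotated as an alcohol dehydrogenase pseudogene, gave 2.0, 1.83 and 1.78 in females and was not well above background in males (at least 84.3-fold). Rasd2, a Ras-like GTPase, was higher by 5.40 (SE 0.38), Syt12, a synaptotagmin, by 4.37 (SE 0.45), Ifitm6, of the interferon-induced transmembrane family, by 4.36 (SE 0.42), and Ky, a muscle peptidase-like gene, by 4.61 (at least 5.47-fold).

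On the male side, Stac3, known as a muscle calcium channel adaptor, gave -3.74, -3.42 and -4.56 in females and 5.0, 2.76 and 5.54 in males (-8.34, SE 0.60). Inmt, an amine N-methyltransferase, differed by -5.64 (SE 0.62), Gfra1, a receptor of the GDNF family, by -5.57 (SE 0.64) with a probe not well above background on any female array, and Cdh17, a cadherin, by -5.22 (SE 0.86). Cdh17 was called in 3 of the 6 fits that leave out 1 vehicle array. Both groups varied: -4.66, -3.86 and -1.72 in females and 2.38, 0.02 and 3.03 in males.

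Called genes sat beside each other in 5 runs of at least 3, each gene within 5 annotated genes of the next. In every run all called genes were lower in females. The runs were Hsd3b5, Hsd3b2, Hsd3b1 and Hao2 (all 4 measured genes of the stretch), Gstm3, Gstm1 and Gnat2 (3 of 6 measured), Obp3, Mup4l4 and Mup4 (3 of 3), Ust5r, Slc22a25 and Slc22a8 (3 of 3), and Akr1c12l1, Akr1c12 and Akr1c3 (3 of 4). Hao2 and Gnat2 lie outside the enzyme families of their stretches. Gnat2, a cone photoreceptor transducin subunit, read -3.13, -3.80 and -4.17 in females and -1.50, -1.13 and -0.73 in males (-2.58, SE 0.34).

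The lists of genes held to be sex-biased in rat liver, drawn from general knowledge, were followed in part. Of 39 measured genes of the male list, 21 were lower in females, 1 (Akr1b7) was higher, and the median was -2.79. Of 36 measured genes of the female list, 12 were higher, 3 were lower and the median was 0.74, with Cyp2c7 and Onecut1 among the 21 not called. The 3 lower ones were Hao2, Sult1a1 and Slco1a4, an organic anion transporter (-1.12, SE 0.23), whose call held in 1 of the 6 fits without 1 vehicle array. These lists were drawn up from prior knowledge of the same phenomenon.

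Other probes of called genes read the same RNA pools on the same arrays, so they are no separate test of the sex difference. For 56 of the 235 genes, 67 further probes had been kept. All 67 had the same sign as the probe used. Of them 27 were called the same way, none the opposite way, and the rest were not called. Some of the rest differed little, such as those of Gas6 (0.062) and Wdpcp (-0.19). The share of agreeing signs over all autosomal genes was not counted.

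The same sex difference was then read in the 6 arrays of dexamethasone-treated rats, which share no array with the vehicle comparison. Both comparisons draw on one estimate of the spread, however. Slides 1, 2 and 5 also held arrays of both treatments, and arrays of the same slide deviated together. After dexamethasone 292 autosomal genes were called (2.48%). Of the 235 vehicle-called genes, 119 were called the same way there, 51 higher and 68 lower in females. That is 50.6% of the vehicle calls and 40.8% of the dexamethasone calls. The sign was the same for 220 of 235, and Nrcam was called in the opposite direction. The share of all autosomal genes with the same sign in both treatments was not counted. Of the 102 vehicle-called genes whose raw signals differed at least 4-fold, 76 (74.5%) were called the same way, against 43 of 133 smaller ones (32.3%). With the slide as a block, 77 genes were called the same way in both, out of the 69 higher and 78 lower that this fit itself called after vehicle.

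Several of the genes above were called in both treatments: the difference of Cyp2c11 read -8.56 after dexamethasone against -8.88 after vehicle, A1bg 12.69 against 11.50, Prlr 7.69 against 7.31, Hsd3b5 -8.36 against -9.89 and Hsd11b1 -2.49 against -2.62. Cyp2c7 (6.31, adjusted p = 0.0106) and Onecut1 (2.69, adjusted p = 0.0186), not called after vehicle, were called after dexamethasone, but their difference between treatments was not called (adjusted p = 0.611 and 0.524). Sult2a1 read 7.07 against 4.41 and Stac3 -4.47 against -8.34, again with no called difference between treatments (adjusted p = 0.340 and 0.211).

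**Figure D4:**
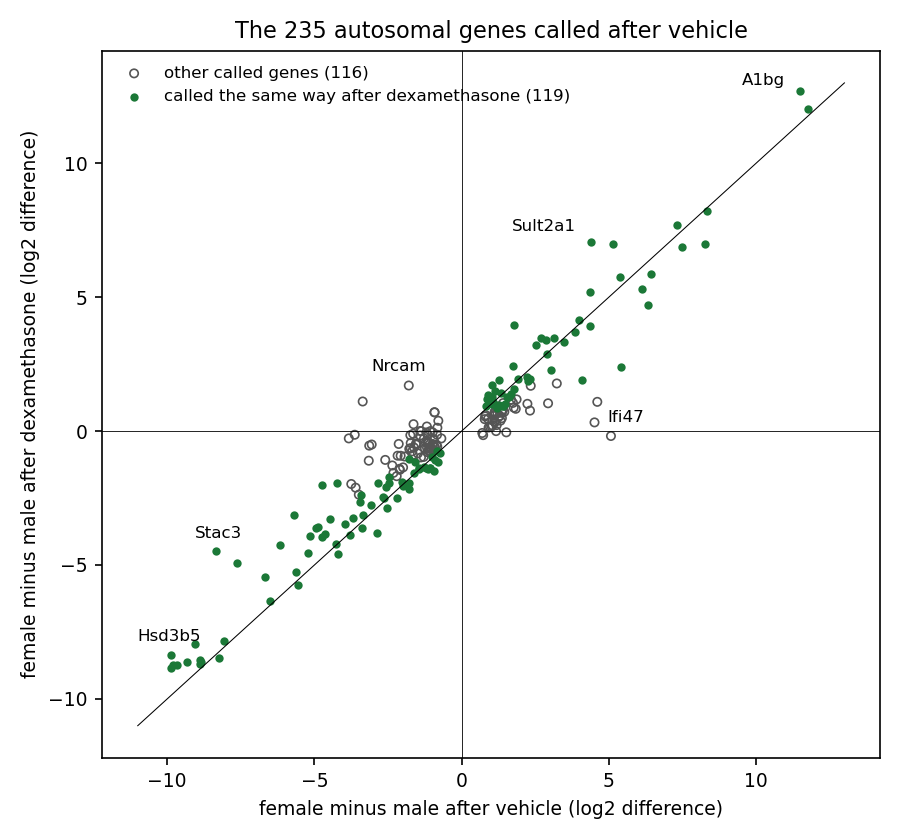
Difference between the sexes after dexamethasone (vertical axis, log2) against the difference after vehicle (horizontal axis, log2) for the 235 autosomal genes called after vehicle; filled green points (119) were called the same way after dexamethasone, open points (116) were not, and the diagonal marks equal differences. Most large differences lie near the diagonal, and Ifi47, Nrcam and Stac3 lie away from it.

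The test of whether the sex difference itself changed with treatment (interaction) called 4 autosomal genes of 11778 (0.0340%), and 1 of the 235, at an adjusted p under 0.05. The call among the 235 was lost in each of the 6 fits that leave out 1 vehicle array and without the filter on dim probes. Ifi47 had a large difference after vehicle and a small one after dexamethasone, without a called interaction (0.32 after dexamethasone, interaction adjusted p = 0.177).

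**Figure D5:**
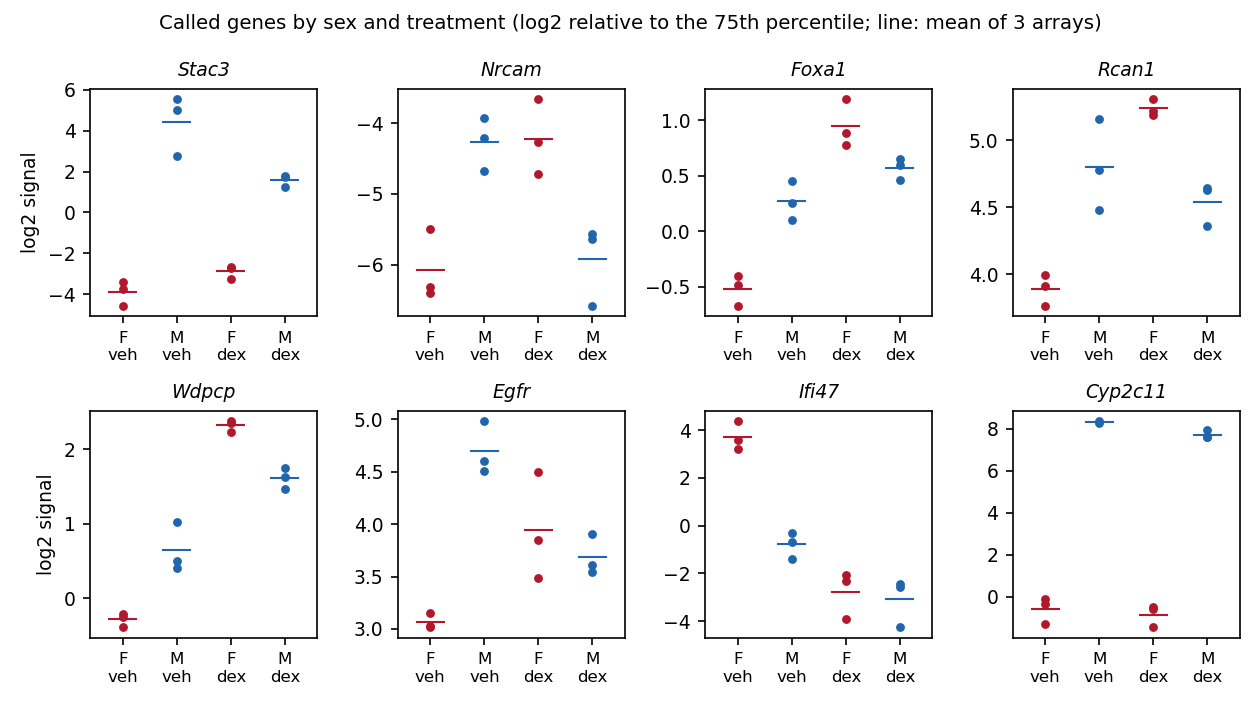
Log2 signal, relative to the 75th percentile, of 8 genes called after vehicle in the female (F, red) and male (M, blue) arrays after vehicle (veh) and dexamethasone (dex); each point is 1 array, each line a group mean, and each panel has its own axis. Ifi47 is high in the female vehicle arrays alone, Nrcam, Foxa1, Rcan1 and Wdpcp change the order of the sexes, and Cyp2c11 keeps it.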

How the data were processed

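Per the labels' protocols, each pool of liver RNA was Cy3-labelled for an Agilent rat array read in 1 colour. The deposited scanner files hold spot intensities from Agilent Feature Extraction, version 9.1 per the submitters' processing notes and 9.1.3.1 per the file headers. The deposited series values give log10 intensities of unstated scaling, with array medians from 1.49 to 1.52. It correlated with the scanner signal at r of 0.996 or more on every array and served as an alternative.

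The processed signal, background-subtracted and detrended by the authors' software, was put on the log2 scale and set against its array's 75th percentile over non-control spots. Flagged spots (211 over 12 arrays) were left out, none was saturated, and repeat spots were averaged by probe. A probe was kept if 3 or more of the 12 arrays had it well above background and each group had 2 or more usable arrays. The brightest kept probe stood for its gene. Of 41012 probes, 20384 (49.7%) matched a gene of the RefSeq genes (GRCr8) by accession, identifier, symbol or older symbol; 28 of the 235 called genes rest on an older symbol. Genes without a match (12153, of which 168 were called) have no chromosome here and were left out. No genome build is given in the sources used here, so gene positions serve only for the autosome rule and for neighbours; upstream sequences and their coordinates are RefSeq's in GRCr8, with a single start per gene.

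Group means of all 12 arrays were fitted with limma 3.58.1 (R 4.3.3, statmod 1.5.0), and p-values were adjusted over all 24293 genes by Benjamini-Hochberg. The fit was run on simulated data with independent arrays, which cannot show the effect of deviations shared within a slide. A fold marked "at least" sets the bright group's mean against, per array of the dim group, the lowest signal that still cleared background or the probe's own signal if higher. The contrasts were female minus male after vehicle, after dexamethasone and their difference. Named genes were a fixed set of known sex-biased genes, the 20 largest called differences in each direction, up to 8 called members per list, runs of neighbours, called interactions and the 3 genes on each side of the threshold; a few further list members are given with their values. The members, lists and motifs were chosen with earlier results of these data known. Alternatives covered background correction, scaling, the deposited series values, the filter, probe choice, the arrays fitted, slide, replicate number, an intensity trend and leaving out each vehicle array. Results of 2 of the named genes are not reported here.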

Additional observations from a re-analysis of the deposited data

Results flagged for a closer look

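For 4 of the 235 genes called after vehicle, the 3 female and 3 male arrays were apart in opposite directions after vehicle and after dexamethasone. None of the 4 had a called interaction. With 3 arrays per sex, some genes separate without a sex difference, and 17.1% of all autosomal genes had no overlap after vehicle. The share of all autosomal genes apart in opposite directions was not counted. The vehicle calls of Rcan1, Wdpcp and Nrcam each held in 1 of the 6 fits without 1 vehicle array and that of Foxa1 in none, and with the slide as a block none was called (adjusted p from 0.124 to 0.263). Foxa1 differed by -0.79 after vehicle and 0.38 after dexamethasone (interaction adjusted p = 0.174). Rcan1, a regulator of calcineurin, differed by -0.92 and 0.70 (interaction adjusted p = 0.0883). Wdpcp, a ciliary planar polarity effector, differed by -0.92 and 0.70 (interaction adjusted p = 0.0883), and a second probe of that gene gave -0.19 after vehicle. Nrcam, a cell adhesion molecule, differed by -1.80 and 1.70 (interaction adjusted p = 0.0883), and it was well above background on 1 male and no female vehicle array. Groups of 3 arrays were too small to look for outlying arrays.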

How the results depend on the processing

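Of the 235 calls, whose direction the lack of overlap between arrays largely fixes, 74 stayed called in every one of the 18 alternative fits that tested them; 180 of them were tested and 180 called where only probes well above background on all 6 vehicle arrays were used. Against 95 genes higher and 140 lower in females, the vehicle arrays alone called 40 and 56, the slide as a block 69 and 78, and the slide as a random block 165 and 211. Of the 235 calls these fits kept 94, 114 and 234. Leaving out 1 vehicle array called 56 to 80 higher and 89 to 103 lower. Genes called the same way after dexamethasone numbered 119, 77 with the slide as a block, and 82 to 113 without 1 vehicle array. Each of these numbers is out of the vehicle calls of its own fit. Called interactions numbered 1, and 10 under normexp, 2 under quantile normalization, 2 in the deposited value table, 0 without the filter on dim probes, 3 with the slide as a block, 2 with it as a random block, 5 with an intensity trend and 0 to 0 without 1 vehicle array. The cause of these shifts was not tested. With the replicate block, 134 were called higher, 173 lower, 149 also after dexamethasone and 3 with an interaction; deviations of same-numbered female and male arrays correlated at 0.24, 0.050 and 0.50, and since not every pair passed 0.1 the numbers were not taken as pairing the arrays, although those of replicate 3 share slide 5. The scalings shifted the median difference by less than 0.1 (log2). Of the 99 named genes, 81 of them called, no called difference reversed; 168 values fell short of the threshold under an alternative, 33 passed it, and 39 untested values moved by more than 1 SD. Dim signal limits genes below background in 1 sex, whose folds are bounds.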
